A study of Mus musculus with 9 samples.

Results

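The genes described here are 10 genes used to mark the fibroblasts of the meninges and of the perivascular space: Col1a1, Col1a2, Col3a1, Dcn, Lum, Igf2, Slc6a13, Aldh1a2, Foxc1 and Gjb2. They were listed by name, with earlier results of these data known, and no measured value enters the choice as a threshold. They are 10 of the 47643 genes in the count matrix. All 10 had reads in all 9 hippocampal libraries, with a lowest count of 58 (Lum in MRL/lpr 3), and all 10 passed the filter on low counts in each comparison. RNA of the hippocampus of mice aged 6 weeks was sequenced in 3 libraries per group. The legend of the study's expression maps calls each column of MRL/mpj and MRL/lpr an individual mouse, and given the conflict described next it is not clear which lupus libraries that covers. The p-values measure the spread between the libraries of a group. Within each group every pair of libraries differed by more than counting error. The chi-square divided by the number of genes was 10.7 to 11.1 in MRL/mpj, 27.8 to 70.9 in MRL/lpr and 19.9 to 42.1 in MRL/lpr+MSC. MRL/mpj mice are the untreated controls, which the labels call wild type. MRL/lpr mice carry the lpr allele of Fas, develop lupus spontaneously and were untreated. MRL/lpr+MSC mice have the same genotype and were given mesenchymal stem cells, whose dose, route and time are not given in the sources used here. The labels name C57BL/6 as the strain of all libraries where the study's methods name MRL strains. The methods describe perfusion of the animals with PBS and dissection of the hippocampus, and the meninges are not mentioned as removed or kept.

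One conflict touches every value for the lupus groups. In the part of the study's own expression table that was read (1999 genes), each of the 3 columns headed MRL/lpr equalled 1 of the libraries with the label MRL/lpr+MSC times a fixed factor, and none did so for a library with the label MRL/lpr. Its 3 MRL/mpj columns matched the MRL/mpj libraries in the same way. The labels were kept, each group name below means the libraries labelled so, and both lupus groups are therefore set against MRL/mpj. Fas could not tell the lupus groups apart, since they have the same genotype. Its counts cover the whole gene, and whether they show the lpr allele was not tested. Fas had 30 to 43 counts in MRL/mpj, 31 to 65 in MRL/lpr and 19 to 41 in MRL/lpr+MSC, ranges that overlap. Between 19475804 and 26912031 reads were counted per library. CPM below are counts scaled to the size of the library, after a correction for its composition.

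Fibroblasts of the brain lie at its borders, in the pia, arachnoid and dura, in the stroma of the choroid plexus and around the larger vessels that enter the tissue. They lay down fibrillar collagen and the small proteoglycans that space its fibrils, they secrete growth factors and retinoic acid, and the arachnoid and pial cells are joined by gap junctions. Neurons and most glia of the hippocampal parenchyma make little of these products, so in whole tissue the genes report mainly on the pia, the hippocampal fissure, vessels and any attached choroid plexus. In RNA from whole tissue, fewer fibroblasts and less RNA per fibroblast cannot be told apart.

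The upstream sequence of the genes is shown because their levels moved together across the libraries (below), and a reader may ask whether their starts share a common element. RefSeq promoter sequence of GRCm38.p6 matched 7 of the 10 genes, at 12 transcription starts, and Col1a1, Dcn and Lum were not matched. The 120 bases before the start are given 5′ to 3′ on the gene's strand for 4 genes with 1 listed start each. Capitals mark CCAAT boxes, GC boxes (GGGCGG) and TATA boxes (TATAAA) on either strand, which do not overlap in these windows. The last 13 bases of the Foxc1 window lie inside the gene as annotated by GENCODE. The window of Col1a2, which also has 1 listed start, lies wholly inside its annotated gene and is not printed. Most windows of Igf2 and Slc6a13 lie wholly inside theirs too.
Col3a1, chr1:45311418-45311537, plus strand: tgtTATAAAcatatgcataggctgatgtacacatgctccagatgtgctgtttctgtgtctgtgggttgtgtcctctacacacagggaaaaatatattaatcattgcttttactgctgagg
Aldh1a2, chr9:71215669-71215788, plus strand: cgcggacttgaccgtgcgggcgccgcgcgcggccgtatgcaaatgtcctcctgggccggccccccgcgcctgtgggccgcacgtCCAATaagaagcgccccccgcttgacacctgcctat
Foxc1, chr13:31806526-31806645, plus strand: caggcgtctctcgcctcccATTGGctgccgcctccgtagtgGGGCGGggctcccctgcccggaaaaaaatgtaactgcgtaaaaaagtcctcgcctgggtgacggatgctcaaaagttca
Gjb2, chr14:57104703-57104822, minus strand: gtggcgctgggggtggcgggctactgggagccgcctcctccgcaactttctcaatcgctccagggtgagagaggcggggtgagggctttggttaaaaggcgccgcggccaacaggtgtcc

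No box searched was common to the set. CCAAT (or ATTGG) stood in 4 of the 12 windows, those of Col1a2, Aldh1a2, Foxc1 and 1 start of Slc6a13, against 21.3% of all 32851 promoters. GGGCGG (or CCGCCC) stood in 4 of the 12 windows, from Igf2, Foxc1 and Slc6a13, against 26.5% of all promoters. TATAAA (or TTTATA) stood in 1, that of Col3a1, where it begins at position -117 from the start, against 6.34% of all promoters. The GC content of the printed windows ran from 40% in Col3a1 to 71.7% in Aldh1a2. The windows with CCAAT of Col1a2 and Slc6a13 and those with GGGCGG of Igf2 lie wholly inside the annotated gene. A match is a description of the letters and not of a site in use.

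Levels between genes are compared per length, as FPKM (fragments scaled to gene length and library size) from the deposited tables. Igf2, a secreted growth factor of the insulin family, had the highest level (mean of the 9 libraries 32.9 FPKM, range 6.88 to 96.0). Dcn, which encodes decorin, a small leucine-rich proteoglycan that binds collagen fibrils, followed with 13.8 FPKM (5.83 to 28.2). Igf2 was above Dcn in 8 of 9 libraries, and Dcn above Aldh1a2, the next in order, in 9 of 9. Aldh1a2, an enzyme of retinoic acid synthesis, had 5.99 FPKM, Slc6a13, a transporter of GABA and taurine, 4.45 and Gjb2, the gap junction protein connexin 26, 4.34. Aldh1a2 was above Slc6a13 in 8 of 9 libraries, whereas the order of Slc6a13 and Gjb2 held in only 5 of 9. Lum, the proteoglycan lumican, had 3.46 FPKM, Col1a2 and Col1a1, the α2 and α1 chains of type I collagen, 2.87 each, Foxc1, a forkhead transcription factor needed for the meninges to form, 2.33 and Col3a1, the chain of type III collagen, 1.05. The order of Lum and Col1a2 held in 5 of 9 libraries and that of Col1a2 and Col1a1 in 3 of 9, so these neighbours were not separated beyond their spread. Foxc1 was above Col3a1 in 9 of 9.

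The 2 chains of type I collagen ran together. Col1a1 (chromosome 11, 94936224 to 94953042, plus strand of GRCm38) had 25.5, 18.2 and 8.30 CPM in replicates 1, 2 and 3 of the controls, 25.9, 32.7 and 16.8 in MRL/lpr and 9.13, 17.9 and 15.3 in MRL/lpr+MSC. Col1a2 (chromosome 6, 4504814 to 4541544, plus strand) had 50.1, 33.5 and 16.5 CPM in the MRL/mpj libraries, 47.0, 75 and 27.6 in MRL/lpr and 12.9, 33.0 and 26.7 in MRL/lpr+MSC. In both genes MRL/lpr 2 was the highest library, MRL/mpj 3 and MRL/lpr+MSC 1 were the lowest, and all 3 groups overlapped. The ratio of Col1a2 to Col1a1 in FPKM stayed between 0.744 and 1.21 in the 9 libraries while Col1a2 itself varied 5.83-fold in CPM. Across the 9 libraries the log2 levels of the 2 genes correlated with r = 0.98, a description of 2 genes read from the same libraries.

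Col3a1 (chromosome 1, 45311538 to 45349706, plus strand), which forms mixed fibrils with type I collagen in soft tissue and vessel walls, had 13.6, 12.7 and 4.56 CPM in the MRL/mpj libraries, 12.4, 22.1 and 9.59 in MRL/lpr and 3.99, 8.40 and 5.32 in MRL/lpr+MSC. Its MRL/lpr libraries all lay above its MRL/lpr+MSC libraries, and both overlapped MRL/mpj. The ratio of Col3a1 to Col1a1 in FPKM ran from 0.232 in MRL/lpr+MSC 3 to 0.467 in MRL/mpj 2.

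Dcn and Lum are neighbours on chromosome 10 (97479609 to 97518143 and 97565128 to 97572703, both on the plus strand, 46985 bases apart). Dcn had 39.1, 29.0 and 16.8 CPM in the MRL/mpj libraries, 43.0, 58.7 and 18.4 in MRL/lpr and 19.6, 21.8 and 12.2 in MRL/lpr+MSC. Lum had 9.54, 6.47 and 5.86 CPM in the MRL/mpj libraries, 6.85, 21.4 and 2.46 in MRL/lpr and 4.78, 4.29 and 2.93 in MRL/lpr+MSC. In MRL/lpr, Lum had the widest range of the 10 genes, and its highest and its lowest library of all 9 were both in that group, 8.70-fold apart. Its 3 MRL/lpr+MSC libraries all lay below its 3 MRL/mpj libraries, while those of Dcn overlapped them. The log2 levels of Dcn and Lum correlated with r = 0.87 over the 9 libraries, and the ratio of Dcn to Lum in FPKM ran from 2.73 in MRL/lpr 2 to 7.43 in MRL/lpr 3.

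Igf2 (chromosome 7, 142650766 to 142666816, minus strand) had the widest range of the 10 genes, 13.9-fold in CPM. It had 163, 131 and 92.6 CPM in the MRL/mpj libraries, 155, 548 and 83.4 in MRL/lpr and 39.5, 389 and 93.8 in MRL/lpr+MSC. MRL/lpr 2 and MRL/lpr+MSC 2 stood far above the other 7 libraries, and all 3 groups overlapped. Beside the fibroblasts, the choroid plexus is a known source of Igf2. The antisense gene Igf2os overlaps Igf2 and had 2 to 25 counts, against 753 to 12883 for Igf2. Gm49394, annotated on the same strand over nearly the same span, is not among the genes of the matrix, and how the counting treated reads of both is not given in the sources used here.

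Slc6a13 (chromosome 6, 121300227 to 121337733, plus strand) had 18.2, 13.2 and 6.13 CPM in the MRL/mpj libraries, 19, 17.0 and 16.6 in MRL/lpr and 5.35, 14.2 and 7.18 in MRL/lpr+MSC. Gjb2 (chromosome 14, 57098600 to 57104702, minus strand) had 14.1, 14.2 and 7.05 CPM in the MRL/mpj libraries, 13.2, 13.7 and 14.1 in MRL/lpr and 4.57, 7.39 and 5.85 in MRL/lpr+MSC. In both, the MRL/lpr libraries were tight (a ratio of highest to lowest of 1.15 and 1.07) and lay above all 3 MRL/lpr+MSC libraries. In both, MRL/mpj 3 was the lowest control and lay within the range of MRL/lpr+MSC, as did MRL/mpj 2 for Slc6a13.

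Aldh1a2 (chromosome 9, 71215789 to 71296243, plus strand) had 25.3, 14.9 and 5.59 CPM in the MRL/mpj libraries, 20.6, 12.2 and 13.5 in MRL/lpr and 6.40, 13.8 and 10.2 in MRL/lpr+MSC. As in Slc6a13 and Gjb2, MRL/lpr 2 was not its highest library: its highest library was MRL/mpj 1 and its lowest MRL/mpj 3, 4.52-fold apart within the controls. Foxc1 (chromosome 13, 31806633 to 31812476, plus strand) had 10.1, 9.51 and 7.59 CPM in the MRL/mpj libraries, 10.6, 13 and 9.68 in MRL/lpr and 8.40, 7.20 and 7.01 in MRL/lpr+MSC. Foxc1 varied least, 1.86-fold over the 9 libraries, and its MRL/lpr libraries all lay above its MRL/lpr+MSC libraries.

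**Figure D1:**
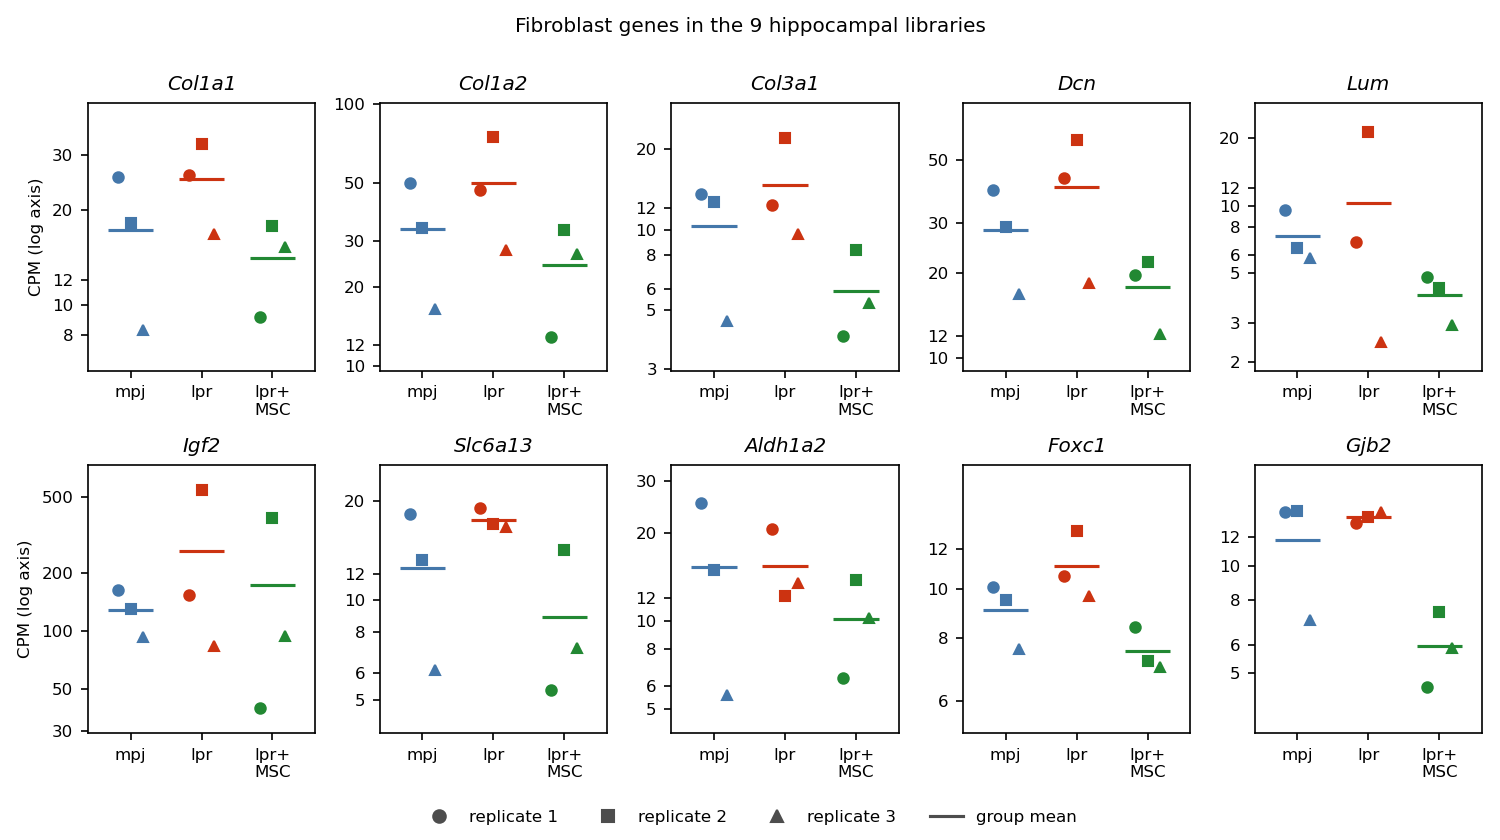
CPM of each of the 10 genes in the 9 libraries (log axis, 1 panel per gene), with marker shape giving the replicate number and a line the group mean. MRL/mpj 3 and MRL/lpr+MSC 1 sit low in most panels, MRL/lpr 2 is the highest library in 7 of 10, and Gjb2 shows 3 MRL/lpr libraries between 13.2 and 14.1 CPM above 3 MRL/lpr+MSC libraries between 4.57 and 7.39.

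The libraries differed from each other across the whole set, also within a group. On the log2(CPM + 0.5) scale, all 10 genes were above their own 9-library mean in MRL/mpj 1 and MRL/lpr 1, and none was in MRL/mpj 3, MRL/lpr+MSC 1 or MRL/lpr+MSC 3. The mean deviation of the 10 genes was 0.55, 0.18 and -0.67 in MRL/mpj replicates 1, 2 and 3. It was 0.47, 0.98 and -0.13 in MRL/lpr and -0.88, 0.06 and -0.56 in MRL/lpr+MSC. The 3 controls alone thus ran from -0.67 to 0.55. Without Igf2 the deviations were close to these, except in MRL/lpr+MSC 2, where 0.06 became -0.10.

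**Figure D2:**
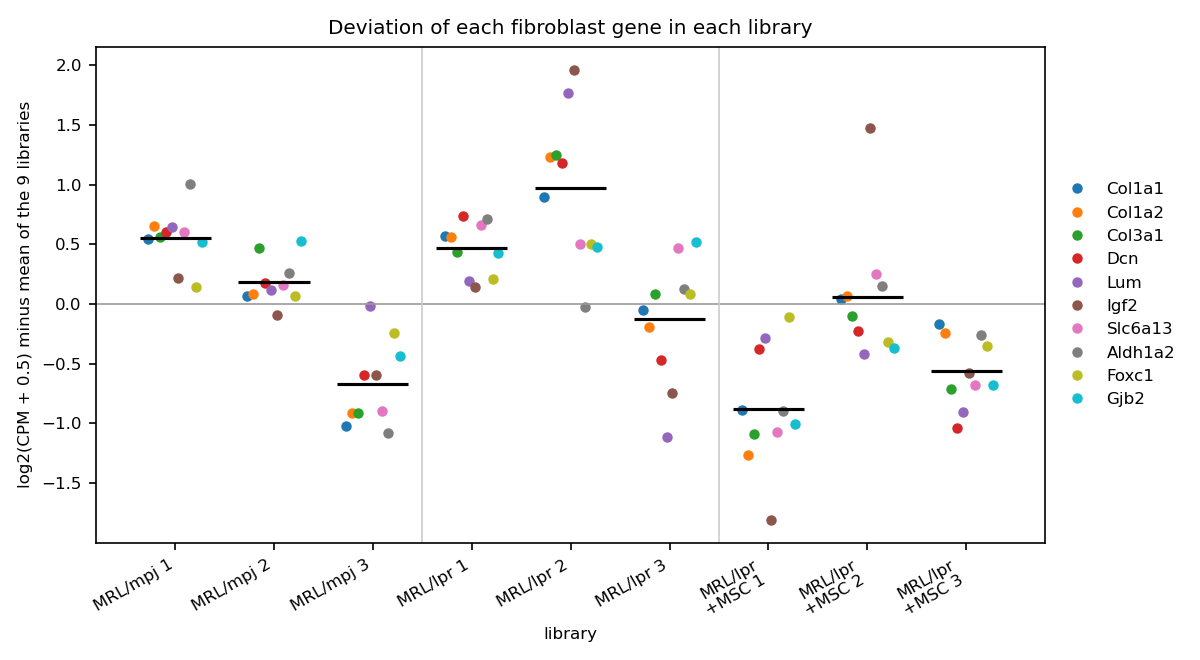
Deviation of each gene's log2(CPM + 0.5) from its mean over the 9 libraries, by library, with 1 colour per gene and a black line for the mean of the 10 genes. The mean line runs from -0.88 in MRL/lpr+MSC 1 to 0.98 in MRL/lpr 2, and within MRL/mpj from -0.67 to 0.55.

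The spread inside a group was large for these genes. The pooled within-group SD of log2(CPM + 0.5) had a median of 0.65 over the 10 genes, against 0.17 over the 15970 genes tested in all 3 comparisons. Igf2 had the largest value, 1.27, followed by Lum with 0.88 and Col1a2 with 0.74. Gjb2 had 0.37 and Foxc1 0.19, a value above that of 54.2% of the genes tested, whereas each of the other 8 exceeded at least 95.5% of them. The genes also moved together: over the 45 pairs the correlation of log2 levels had a median of 0.74 and ran from 0.23 to 0.98. Each gene followed the mean of the other 9 with r between 0.65 (Lum) and 0.98 (Col3a1), so the 10 are not 10 separate readings of a group. These correlations are descriptions over 9 libraries.

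The first comparison asks how the border fibroblast genes stand in untreated lupus mice against their controls. All 10 fitted differences were positive, with a median log2 fold change of 0.48 against 0.03 over all genes tested, and none passed the test (limma voom, adjusted p under 0.05 and at least 1.5-fold). Over all 16697 genes tested 54.1% had a positive difference. Slc6a13 had the smallest adjusted p, 0.267, with means of 17.5 ± 1.29 CPM in MRL/lpr and 12.5 ± 6.06 in MRL/mpj (SD, n = 3 each) and a difference on the log2 scale of 0.60 ± 0.33 (SE). Col1a1 had 25.1 ± 7.99 and 17.3 ± 8.65 CPM and a log2 fold change of 0.61 ± 0.42. Col1a2 had 49.9 ± 23.8 and 33.3 ± 16.8 CPM and a log2 fold change of 0.60 ± 0.49. For Foxc1, the gene measured most evenly, the 95% interval of the fold was 0.928 to 1.61.

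In that comparison 0 of the 10 genes were called, where 5.74% of all genes tested were (959 genes, 580 higher and 379 lower). No gene of the set reached an unadjusted p under 0.05, where 30.1% of all genes did, and none had groups that did not overlap, where 38.1% of all genes did. The direction of 4 genes rested on single libraries. Without MRL/lpr 2, Igf2 was at -0.14 and Lum, at 0.00 with all 6 libraries, at -0.74. Without MRL/mpj 3, Lum was at -0.12, Aldh1a2 at -0.31 and Gjb2 at -0.04, and the median of the 10 fell to 0.15. Lum was also at -0.07 without MRL/mpj 2, and Aldh1a2 at -0.03 without MRL/lpr 1. The other 6 genes kept a positive difference in all 12 alternative fits, of a size that also rested on single libraries. Without MRL/mpj 3, Col1a1 went from 0.61 to 0.20, Col1a2 from 0.60 to 0.19, Col3a1 from 0.54 to 0.08, Slc6a13 from 0.60 to 0.20 and Foxc1 from 0.29 to 0.18. Dcn went from 0.43 to 0.12 without it and to 0.09 without MRL/lpr 2.

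The second comparison sets the libraries labelled MRL/lpr+MSC against the same 3 MRL/mpj libraries. All 10 fitted differences were negative, with a median of -0.47 against 0.00 over all genes tested, of which 49.4% had a negative difference. That of Igf2 was -0.16 ± 0.80 (SE) on the log2 scale, although its mean CPM was higher in MRL/lpr+MSC, 174 ± 188 against 129 ± 35.0 (SD). None passed the test: 0 of 10 were called, where 3.36% of all 16196 genes tested were (544 genes, 301 higher and 243 lower). Lum came nearest, with 4.0 ± 0.959 CPM in MRL/lpr+MSC and 7.29 ± 1.97 in MRL/mpj (SD, n = 3 each), with a difference of -0.88 ± 0.26 (SE) on the log2 scale and an adjusted p of 0.103 from limma voom. Gjb2 had 5.94 ± 1.41 and 11.8 ± 4.10 CPM, a log2 fold change of -0.97 ± 0.34 and an adjusted p of 0.150. These 2 genes had an unadjusted p under 0.05, where 22.8% of all genes did. Lum alone had groups that did not overlap, where 29.4% of all genes did in either direction, so the set did not stand above its background by either count.

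Over the alternative fits the adjusted p of Lum ran from 0.0516 to 0.573 and that of Gjb2 from 0.0534 to 0.327. Leaving out MRL/mpj 1, the highest control, turned Col1a1 to 0.10, Igf2 to 0.02 and Aldh1a2 to 0.03, and moved the median of the 10 genes to -0.20. Leaving out MRL/lpr+MSC 1, the lowest library of its group, turned Col1a1 to 0.05 and Igf2 to 0.60 and moved the median to -0.28. Leaving out MRL/mpj 3, the lowest control, moved it to -0.94, with 6 of 10 genes at an unadjusted p under 0.05. The first and second comparisons share their 3 control libraries, so their values for a gene are not separate readings.

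The third comparison asks how the genes stand in the lupus mice given mesenchymal stem cells against those left untreated. All 10 differences were negative, with a median of -0.95 (from -1.28 in Col3a1 to -0.56 in Foxc1) against -0.01 over all genes tested, of which 52.6% were negative. None passed the test, and neither did any other gene: 0 of 16758 genes, 0% of those tested, were called by limma voom, 646 of them (3.85%) had an unadjusted p under 0.05, and the smallest adjusted p was 0.926. Against that background, 5 of the 10 genes had an unadjusted p under 0.05, a count that was 3 without MRL/lpr+MSC 1 or 3 and 8 without MRL/lpr 3. The groups of 4 genes, Col3a1, Slc6a13, Foxc1 and Gjb2, did not overlap, with MRL/lpr+MSC lower, as in 5.46% of all genes.

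Gjb2 had the smallest unadjusted p of the set, with 5.94 ± 1.41 CPM in MRL/lpr+MSC and 13.7 ± 0.466 in MRL/lpr (SD, n = 3 each). The difference on the log2 scale was -1.22 ± 0.17 (SE), a fold of 0.428 with a 95% interval of 0.321 to 0.571, and its adjusted p from limma voom was 0.926. Slc6a13 had 8.90 ± 4.66 and 17.5 ± 1.29 CPM, with a log2 fold change of -1.09 ± 0.30. Col3a1 had 5.90 ± 2.26 and 14.7 ± 6.56 CPM, with -1.28 ± 0.43. Foxc1 had 7.53 ± 0.752 and 11.1 ± 1.74 CPM, with -0.56 ± 0.16. Col1a1, the fifth gene with an unadjusted p under 0.05, had 14.1 ± 4.5 and 25.1 ± 7.99 CPM, with -0.83 ± 0.34, and its groups overlapped.

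The other 5 genes pointed the same way with wider intervals. Dcn differed by -1.08 ± 0.49 and Col1a2 by -1.02 ± 0.48 on the log2 scale (SE). The 95% interval of the fold was 0.372 to 1.10 for Aldh1a2, 0.133 to 2.23 for Lum and 0.107 to 3.13 for Igf2. Igf2, at -0.79 with all 6 libraries, was at -0.01 without MRL/lpr 2 and at -0.01 without MRL/lpr+MSC 1, and Lum went from -0.88 to -0.14 without MRL/lpr 2. In all 12 alternative fits all 10 genes stayed negative, the median ran from -1.28 without MRL/lpr 3 or without MRL/lpr+MSC 2 to -0.71 without MRL/lpr 2, and the smallest adjusted p of the set was 0.371. As the genes move together across libraries (median r of 0.74), their 10 signs are not 10 separate results. If the labels of these groups were exchanged, the signs would be the opposite.

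**Figure D3:**
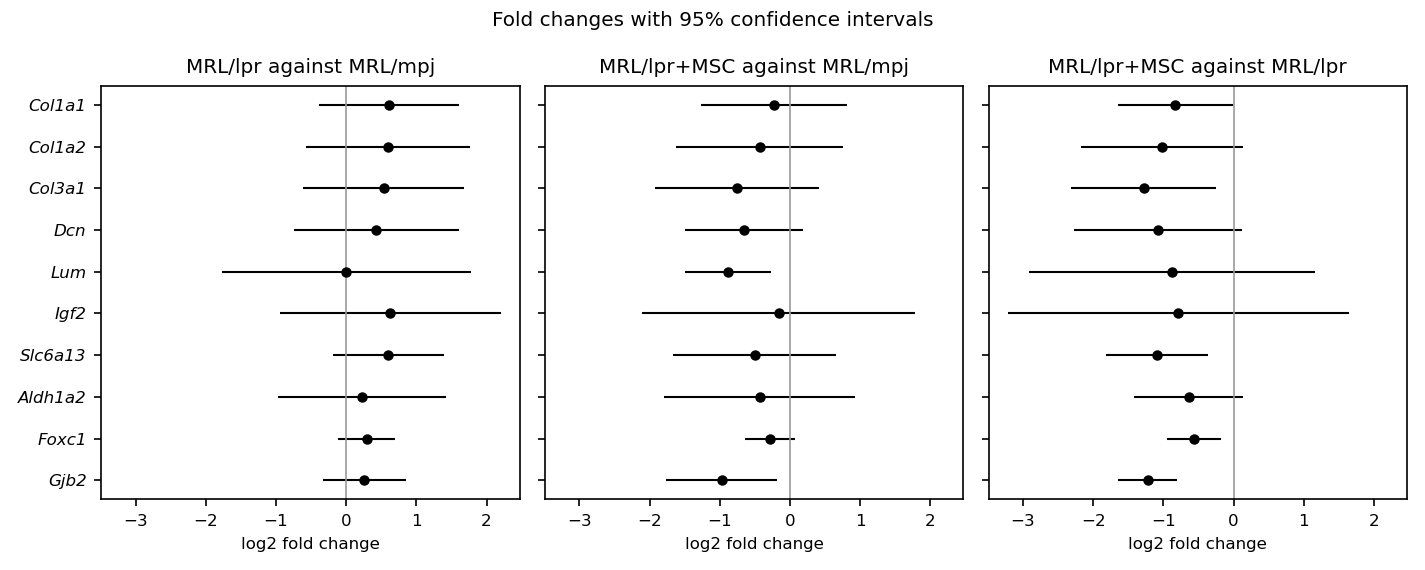
Log2 fold change of each gene in the 3 comparisons, with 95% confidence intervals from limma voom (points are the fitted values, lines the intervals). Every interval for MRL/lpr against MRL/mpj spans 0, those of Lum and Gjb2 lie below 0 for MRL/lpr+MSC against MRL/mpj, and those of Col1a1, Col3a1, Slc6a13, Foxc1 and Gjb2 lie below 0 for MRL/lpr+MSC against MRL/lpr, before any adjustment for the number of genes tested.

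Among the genes outside the set whose pattern was most like its mean over the 9 libraries were Aox3, Anpep, Omd and Adamts12. Aox3, an aldehyde oxidase, and Anpep, aminopeptidase N, each correlated with r = 0.97, at levels of 2.48 to 8.33 and 3.20 to 9.18 CPM. Omd, a small leucine-rich proteoglycan also called osteomodulin, and Adamts12, a secreted metalloprotease, correlated with r = 0.96, at levels of only 0.105 to 1.70 and 0.217 to 1.57 CPM. Without the 2 libraries farthest from the median, r was 0.94 to 0.97. These genes were chosen for the highest r of all genes tested, so their r describes the choice.

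Other genes of fibroblasts and meninges, 30 of them, gave 1 call against MRL/mpj in each lupus group, where 5.74% and 3.36% of all genes were called. At an unadjusted p under 0.05 (limma voom) stood 7 and 3 of the 30, where 30.1% and 22.8% of all genes did. In MRL/lpr, 26 of the 30 were positive, with a median of 0.47, and Col5a2, a chain of the type V collagen that starts fibrils, rose from 4.69 ± 1.02 to 9.54 ± 1.83 CPM (log2 fold change 1.02 ± 0.23 SE, adjusted p = 0.0418, limma voom). Col5a2 was at 8.52 ± 0.858 CPM in MRL/lpr+MSC, with a difference of 0.85 ± 0.19 from MRL/mpj that did not pass (adjusted p = 0.0520). In MRL/lpr+MSC, 17 of the 30 were negative against MRL/mpj, with a median of -0.02, and Serpinf1, which encodes pigment epithelium-derived factor, fell from 26.8 ± 2.45 to 14.3 ± 0.776 CPM (-0.91 ± 0.10, adjusted p = 0.00591). Between MRL/lpr+MSC and MRL/lpr, 28 of the 30 were negative, with a median of -0.53 and no call by limma voom (5 at an unadjusted p under 0.05). The call of Serpinf1 held without any 1 library, and that of Col5a2 was lost without MRL/mpj 1, 2 or 3 or MRL/lpr 1. The most abundant gene of the list, Zic1 (21.4 FPKM), is also made by neurons of some brain regions, and it had 22.2 ± 7.90, 206 ± 144 and 140 ± 122 CPM in the controls, in MRL/lpr and in MRL/lpr+MSC. The summed level of all 30 genes was 281 to 535 CPM in the controls, 589 to 719 in MRL/lpr and 272 to 588 in MRL/lpr+MSC. MRL/lpr overlapped neither, but its lowest sum, 589 CPM, was almost the same as the highest of MRL/lpr+MSC, 588 CPM. Without Zic1, the summed level of the other 29 genes was 267 to 504 CPM in the controls, 369 to 527 in MRL/lpr and 261 to 408 in MRL/lpr+MSC, which overlap. Zic1 was set apart after its values were seen. Over the 9 libraries the log2 sum of the 29 genes correlated with the 10 genes with r between 0.59 (Lum) and 0.98 (Col1a1). That of all 30 did so with r between -0.03 (Lum) and 0.76 (Col1a1 and Slc6a13). Without the 2 libraries farthest from the median of the sum, r for all 30 ran from -0.23 (Lum) to 0.19 (Slc6a13). For the 29 it then ran from 0.41 (Lum) to 0.97 (Col1a2 and Aldh1a2).

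Collagen is folded, trimmed and cross-linked by a machinery shared with other cell types. Of 20 such genes, 1 was called, in MRL/lpr against MRL/mpj: Serpinh1, the collagen chaperone HSP47, rose from 17.3 ± 2.90 to 39.5 ± 6.28 CPM (1.20 ± 0.17, adjusted p = 0.0141, limma voom). It was at 33.7 ± 11.6 CPM in MRL/lpr+MSC, which did not pass (adjusted p = 0.122). The call was lost without MRL/mpj 1, 2 or 3 or MRL/lpr 1, with an adjusted p of at most 0.0695. The median of the 20 genes was 0.21 in MRL/lpr and 0.01 in MRL/lpr+MSC against MRL/mpj and -0.10 between the lupus groups. At an unadjusted p under 0.05 (limma voom) stood 6, 5 and 1 of the 20 in the 3 comparisons, where 30.1%, 22.8% and 3.85% of all genes did. The share of all genes called was 5.74%, 3.36% and 0%. Sparc, a matricellular protein that binds collagen, had the highest mean level, 96.0 FPKM. Of 9 tested small leucine-rich proteoglycans other than Dcn and Lum, none was called by limma voom (1, 0 and 1 at an unadjusted p under 0.05), with medians of 0.28, -0.03 and -0.44 in the 3 comparisons, and Prelp had the highest mean level (6.48 FPKM).

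Of 15 other genes of the IGF axis, 3 were called in MRL/lpr and 2 in MRL/lpr+MSC against MRL/mpj, with list medians of -0.02 and -0.00. Of all genes tested, 5.74% and 3.36% were called. At an unadjusted p under 0.05 (limma voom) stood 5 and 5 of the 15, where 30.1% and 22.8% of all genes did. Igfbp4, a binding protein that holds IGF away from its receptor, fell in both lupus groups, from 136 ± 7.91 CPM in MRL/mpj to 61.9 ± 14.9 in MRL/lpr (-1.15 ± 0.17, adjusted p = 0.0152) and 57.4 ± 7.15 in MRL/lpr+MSC (-1.25 ± 0.11, adjusted p = 0.00181, limma voom). Pappa2, a protease of IGF binding proteins, rose in both from a low level, 0.527 ± 0.102 CPM, to 1.44 ± 0.311 (adjusted p = 0.0416) and 1.53 ± 0.235 (adjusted p = 0.0356). Igf2bp2, which binds Igf2 mRNA among others, rose in MRL/lpr from 0.450 ± 0.0627 to 1.4 ± 0.198 CPM (adjusted p = 0.0240) and did not pass in MRL/lpr+MSC (1.03 ± 0.572, adjusted p = 0.362). The other 12 genes, receptors included, were not called, and Htra1, a secreted protease, had the highest mean level (58.7 FPKM). Between the lupus groups none was called by limma voom, 0 had an unadjusted p under 0.05, and the median was -0.09. The call of Igfbp4 in MRL/lpr+MSC held without any 1 library. The 3 calls of MRL/lpr were each lost without MRL/mpj 1, 2 or 3 or MRL/lpr 1, and that of Pappa2 in MRL/lpr+MSC in 5 of the 6 fits that leave out a library.

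Around Aldh1a2, 2 of 15 tested genes of retinoic acid synthesis, transport, breakdown and reception were called in MRL/lpr against MRL/mpj, both higher, and the median was 0.44. The share of all genes called was 5.74%. Of the 15, 6 had an unadjusted p under 0.05 (limma voom), where 30.1% of all genes did. Aldh1a3, another retinoic acid synthase, rose from 0.321 ± 0.0435 to 1.28 ± 0.410 CPM (1.86 ± 0.40, adjusted p = 0.0368, limma voom), and Rxrg, a retinoid X receptor, from 0.639 ± 0.212 to 3.05 ± 1.4 (2.17 ± 0.52, adjusted p = 0.0488). In MRL/lpr+MSC Rxrg was at 3.65 ± 2.21 CPM and did not pass (adjusted p = 0.161), and Aldh1a3 was under the filter on low counts. The call of Aldh1a3 was lost in all 3 fits leaving out a library that tested it, those without MRL/mpj 1, 2 or 3. Without MRL/lpr 1, 2 or 3 it was not tested, being under the filter. The call of Rxrg was lost without MRL/mpj 1, 2 or 3 or MRL/lpr 1. Both calls were also lost with all 9 libraries in one fit. The median of the list was 0.03 in MRL/lpr+MSC against MRL/mpj and -0.24 between the lupus groups, with no call by limma voom. At an unadjusted p under 0.05 (limma voom) stood 6 of 14 tested and 1 of 15, where 22.8% and 3.85% of all genes did. Rxrb had the highest mean level (20.5 FPKM). Of the families of Slc6a13 and Gjb2, 0 of 5 other Slc6 transporters and 0 of 9 other connexins were called in any comparison by limma voom (at an unadjusted p under 0.05, 1, 1 and 0 transporters and 0, 1 and 0 connexins in the 3 comparisons). Their medians in the 3 comparisons were 0.05, 0.11 and 0.07 for the transporters and -0.17, -0.23 and -0.05 for the connexins, led by Gja1 of astrocytes (107 FPKM).

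Markers of other cells that border the hippocampus were measured beside the set. The summed level of 13 choroid plexus epithelium markers, none of them at 0 in any library, was 178 to 734 CPM in the MRL/mpj libraries, 144 to 10004 in MRL/lpr and 112 to 5078 in MRL/lpr+MSC, led by Ttr (transthyretin, mean 1444 FPKM), which had 51.1 to 8755 CPM in MRL/lpr. The highest libraries were MRL/lpr 2 and MRL/lpr+MSC 2, the same 2 in which Igf2 was highest. Over the 9 libraries log2 Igf2 correlated with the log2 sum with r = 0.88 (Spearman's rho 0.77, r = 0.54 without the 2 farthest libraries), and the other 9 genes with r between 0.07 (Aldh1a2) and 0.56 (Col1a2). All 13 markers were positive in both lupus groups against MRL/mpj, with medians of 1.92 and 1.07, and negative between MRL/lpr+MSC and MRL/lpr, with a median of -0.58, and none was called by limma voom (2, 0 and 0 at an unadjusted p under 0.05 in the 3 comparisons). Such an unadjusted p was reached by 30.1%, 22.8% and 3.85% of all genes tested. The part of the choroid plexus markers in the values of Igf2 and the other genes was not tested.

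Markers of border macrophages, which live in the same spaces as the fibroblasts, tracked more of the set than the choroid plexus markers did. The summed level of their 9 markers, none at 0 in any library, was 32.2 to 57.8 CPM in the MRL/mpj libraries, 35.9 to 44.1 in MRL/lpr and 19.4 to 43.8 in MRL/lpr+MSC. MRL/lpr+MSC 1 had the lowest sum and MRL/mpj 1 the highest. The 10 genes correlated with it with r between 0.47 (Lum and Foxc1) and 0.87 (Slc6a13). Clec10a, a lectin of these macrophages, rose in MRL/lpr from 0.904 ± 0.262 to 2.14 ± 0.314 CPM (adjusted p = 0.0451, limma voom), a call that held in 1 of the 6 fits that leave out a library. Stab1 had the highest mean level (1.66 FPKM), and no other marker of the list was called. The median of the 9 markers was 0.06 in MRL/lpr and -0.50 in MRL/lpr+MSC against MRL/mpj and -0.48 between the lupus groups. At an unadjusted p under 0.05 (limma voom) stood 2, 1 and 1 of them, where 30.1%, 22.8% and 3.85% of all genes did. The share of all genes called in MRL/lpr against MRL/mpj was 5.74%. The part of these macrophage markers in the result was not tested.

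**Figure D4:**
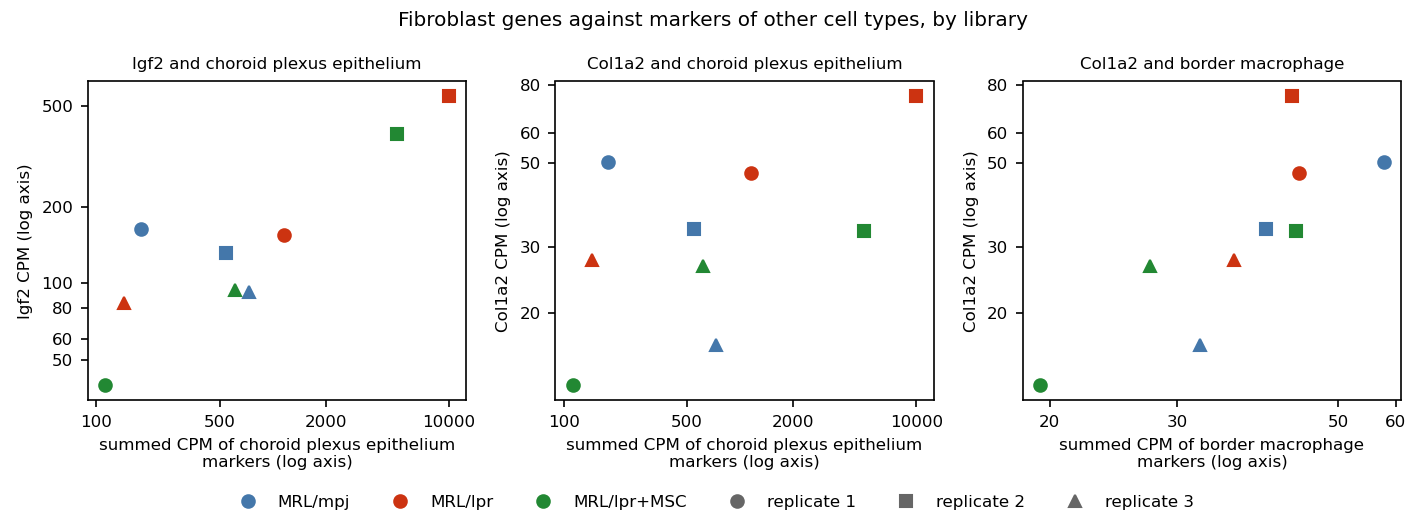
Igf2 and Col1a2 in CPM against the summed CPM of choroid plexus epithelium markers (left and middle) and Col1a2 against that of border macrophage markers (right), 1 point per library, all axes log. Igf2 is highest in the 2 libraries with the highest choroid plexus sums, 10004 and 5078 CPM. Col1a2 is also highest in the first of them, MRL/lpr 2 (75.0 CPM). In the second, MRL/lpr+MSC 2 (33.0 CPM), Col1a2 lies among the other libraries.

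Markers of vessel cells had narrower ranges. The summed level of 12 endothelial markers was 394 to 458 CPM in the MRL/mpj libraries, 441 to 457 in MRL/lpr and 452 to 510 in MRL/lpr+MSC, and correlated with the 10 genes with r between -0.38 (Gjb2) and 0.07 (Aldh1a2). Cldn5, a tight junction protein and the most abundant of them (35.4 FPKM), rose from 33.3 ± 2.18 CPM in MRL/mpj to 55.4 ± 4.85 in MRL/lpr (adjusted p = 0.00872) and 61.7 ± 9.93 in MRL/lpr+MSC (adjusted p = 0.0117, limma voom). These calls were lost without MRL/mpj 3 in the first case and without MRL/mpj 1, 2 or 3 in the second. Of the 12 endothelial markers, 1, 3 and 0 had an unadjusted p under 0.05 in the 3 comparisons (limma voom), where 30.1%, 22.8% and 3.85% of all genes did. The share of all genes called was 5.74%, 3.36% and 0%. The sum of 12 pericyte and smooth muscle markers was 229 to 295, 224 to 258 and 229 to 242 CPM, with Rgs5 the most abundant (21.3 FPKM) and no call by limma voom (5, 6 and 1 of 12 at an unadjusted p under 0.05). Ependymal markers, 8 genes of which Mia was at 0 in most libraries, summed to 24.7 to 27.7, 69.6 to 203 and 36.7 to 122 CPM, with both lupus groups above the controls. All 7 tested were positive in MRL/lpr (median 2.14, 1 called, 7 at an unadjusted p under 0.05) and in MRL/lpr+MSC (median 1.63, 0 called by limma voom, 4 at an unadjusted p under 0.05) against MRL/mpj. Between the lupus groups all 7 were negative (median -0.66, 0 called, 0 at an unadjusted p under 0.05). Rsph1, a protein of motile cilia (13.4 FPKM), rose in MRL/lpr from 7.82 ± 0.905 to 23.8 ± 8.71 CPM (adjusted p = 0.0461), held in 1 of the 6 fits that leave out a library.

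Blood left in the tissue and the hippocampal neurons complete the lists. The 5 red blood cell genes, of which Hba-a2 was at 0 in some libraries and Hba-a1 the most abundant (50.7 FPKM), summed to 58.2 to 165 CPM in the MRL/mpj libraries, 52.9 to 103 in MRL/lpr and 28.1 to 149 in MRL/lpr+MSC. Hbb-bt, a β-globin gene whose reads can be shared with its close copy Hbb-bs, fell from 3.87 ± 0.825 CPM to 0.487 ± 0.313 (adjusted p = 0.0120) and 0.251 ± 0.225 (adjusted p = 0.00913, limma voom). The first of these calls was lost without MRL/mpj 1, MRL/mpj 3 or MRL/lpr 1. The 12 markers of hippocampal principal neurons, led by Neurod6 (92.3 FPKM), summed to 2233 to 2505 CPM in the MRL/mpj libraries, 1419 to 2211 in MRL/lpr and 1617 to 1965 in MRL/lpr+MSC, with 11 of 12 negative in each lupus group. At an unadjusted p under 0.05 (limma voom) against MRL/mpj stood 4 of the 12 in MRL/lpr and 8 in MRL/lpr+MSC, where 30.1% and 22.8% of all genes did. The share of all genes called was 5.74% and 3.36%. Fibcd1 of CA1 neurons fell from 143 ± 11.8 to 66.2 ± 8.16 CPM in MRL/lpr (adjusted p = 0.00422) and 83.1 ± 8.50 in MRL/lpr+MSC (adjusted p = 0.00890), and Spink8 from 19.3 ± 2.18 to 11.5 ± 0.973 in MRL/lpr (adjusted p = 0.0190). The call of Fibcd1 in MRL/lpr held without any 1 library, its call in MRL/lpr+MSC was lost without MRL/mpj 2 or 3, and that of Spink8 without MRL/mpj 1, 2 or 3 or MRL/lpr 1. The part of these markers in the values of the fibroblast genes was not tested.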

How the data were processed

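The authors aligned reads of poly(A) RNA to mm10 with STAR and counted them per gene with HTSeq (the labels' processing notes name TopHat2). They deposited raw counts of 47643 genes for 9 libraries and FPKM tables per library. All 9 FPKM tables followed the counts of their own library. Use of strand in counting is not given in the sources used here. Counts were scaled by TMM (30% and 5% trimmed) to CPM. Genes were kept with 15 counts in all and, in 3 libraries, the CPM that 10 counts have at the median library size. They were tested by limma voom with robust moderation (R 4.3.3 with limma 3.58.1 and statmod 1.5.0), each comparison on its own 6 libraries, with Benjamini-Hochberg adjustment over all genes. A call needs an adjusted p under 0.05 and 1.5-fold. The planned quasi-likelihood test on counts was not run, nor DESeq2, the authors' own tool, because the matrix's separator kept its unit from being registered as counts. Log2 levels use a pseudocount of 0.5 CPM. Symbols came from GENCODE (47224 genes). The 10 genes and all 15 lists were chosen with earlier results of these data known. Named are the 10 genes, every called gene and the most abundant gene of each list, and the 5 genes most like the set. Some of these are not reported here. The count of 3 reads equals 0.1115 to 0.154 CPM. Alternatives were other size factors, filters, 1 fit of all libraries, a replicate block, each library left out and, added after seeing the data, library quality weights.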

Additional observations from a re-analysis of the deposited data

How the results depend on the processing

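None of the 10 genes was called in any of the 12 alternative fits of any comparison. The number of all genes called in MRL/lpr against MRL/mpj was 959, 2064 with library quality weights, and from 129 (no MRL/mpj 3) to 1477 (no MRL/lpr 2) when 1 library was left out. Leaving out MRL/mpj 1, MRL/mpj 2 and MRL/lpr 1 gave 214, 204 and 298. In MRL/lpr+MSC against MRL/mpj it was 544, 1181 with quality weights, and from 159 (no MRL/mpj 3) to 1350 (no MRL/lpr+MSC 1), with 177 and 189 when MRL/mpj 1 or 2 was left out and 317 and 237 when MRL/lpr+MSC 2 or 3 was. Between the lupus groups it stayed at 0 in all 12. Fewer libraries enter each such fit, and the cause of the larger moves was not tested.

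Signs that turned, as log2 fold changes, were those of Lum in MRL/lpr against MRL/mpj at -0.02 with median-of-ratios size factors, -0.0036 with all 9 libraries in one fit, -0.03 with quality weights and -0.07, -0.12 and -0.74 without MRL/mpj 2, MRL/mpj 3 and MRL/lpr 2. In the same comparison Igf2 was at -0.14 without MRL/lpr 2, Aldh1a2 at -0.31 without MRL/mpj 3 and -0.03 without MRL/lpr 1, and Gjb2 at -0.04 without MRL/mpj 3. In MRL/lpr+MSC against MRL/mpj, Igf2 was at 0.30 with quality weights, Col1a1 at 0.10, Igf2 at 0.02 and Aldh1a2 at 0.03 without MRL/mpj 1, and Col1a1 at 0.05 and Igf2 at 0.60 without MRL/lpr+MSC 1. With 1 library left out, the far ends were 0.71 for Lum, 1.23 for Igf2, 0.68 for Aldh1a2 and 0.44 for Gjb2 in MRL/lpr, and -0.64 for Col1a1, -1.05 for Igf2 and -0.97 for Aldh1a2 in MRL/lpr+MSC, each against MRL/mpj. Of the 19 calls of genes in the other lists, 12 held in every other setting that tested the gene, 4 held whichever library was left out, and none turned.

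The replicate numbers are not said to pair mice. Deviations of same-numbered libraries from their group means correlated with r between -0.206 and 0.402. In each comparison the libraries numbered 2 and 3 correlated best with the library of their own number, and those numbered 1 did not. Whether same-numbered libraries share more than a number was not tested. With the replicate block, 1349 genes were called in MRL/lpr against MRL/mpj, 286 in MRL/lpr+MSC against MRL/mpj and 0 between the lupus groups. With 3 libraries per group and a median within-group SD of 0.65 on the log2 scale, which is more than the 1.5-fold threshold on that scale, a change of that size in a typical gene of the set lay within the spread between libraries.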
